A study of Bos taurus with 4 samples.

Results

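The antioxidant and glutathione genes were followed in RNA sequencing of bovine (Bos taurus) embryos, as the rows of the deposited expression table whose gene symbols belong to the peroxiredoxin (PRDX), glutathione peroxidase (GPX), superoxide dismutase (SOD), thioredoxin (TXN), glutathione transferase (GST), glutaredoxin (GLRX), methionine sulfoxide reductase (MSR), haem oxygenase (HMOX) and glutamate-cysteine ligase (GCLC, GCLM) names, together with CAT, GSR, GSS, NQO1, NFE2L2, KEAP1, SRXN1, SELENOP, MT1A and MT2A. This rule took 73 of the 14517 transcript rows, for 69 genes. The rule used names only and no measured value, though it was chosen with earlier results of these data known. Because it goes by first letters, it also took MSR1, a scavenger receptor of macrophages, TXNL4A, a splicing protein, its relative TXNL4B, and GSTCD. None of these is a known antioxidant enzyme. The symbols GSTM2, GSTP1, MSRB3, TXNDC15 and TXNDC2 were not analysed here.

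The embryos were collected 3 days after insemination with 8 to 16 cells, when the bovine embryo's own genome is being activated. As zygotes they had received small interfering RNAs (siRNAs). The NC group (n = 2 libraries) received negative control siRNAs. The KDM5_KD group (n = 2 libraries) received siRNAs against KDM5A, KDM5B and KDM5C, which encode demethylases of lysine 4 of histone H3. The treatment entry of KDM5_KD replicate 2 names siRNAs against KDM6 genes instead, while its title names the Kdm5 knockdown, and the library was grouped by its title. No breed, sex or number of embryos per library is stated, nor whether libraries came from separate collections, so the p-values measure the spread between these libraries only, which may be technical.

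Cells convert superoxide into hydrogen peroxide with superoxide dismutases, and remove the peroxide with catalase, peroxiredoxins and glutathione peroxidases. Peroxiredoxins are regenerated by the thioredoxin system and glutathione peroxidases by glutathione, and both systems draw their electrons from NADPH. NRF2, the protein of NFE2L2, switches on many of these genes, and KEAP1 marks it for degradation in unstressed cells. Early embryos cultured outside the oviduct are known to be sensitive to oxidative stress, and the oocyte supplies much of their first glutathione.

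Levels are FPKM, read fragments divided by transcript length and by the mapped total of the library, which allows for differences in length and depth. Comparisons between libraries still depend on the scaling, as the counts under other scalings below show. The FPKM summed to between 283347 and 322267 in the 4 libraries with all rows. Without microRNA rows they summed to between 279259 and 290051, and read depth is unknown. KDM5A, an siRNA target, went from 28.4 and 27.1 FPKM (NC) to 10.5 and 10.1 FPKM (KDM5_KD), with a limma adjusted p = 0.0333. KDM5C, another target, did not pass, with 28.1 and 40.6 FPKM in the controls against 15.1 and 17.8 FPKM in the knockdown (limma adjusted p = 0.123), and KDM5B was not analysed here. The library with the conflicting label thus had as little KDM5A as the other knockdown library. The 5 early embryo markers were present in every library, and none passed the test. POU5F1 (56.2 to 63.2 FPKM), NANOG (37.0 to 55.0 FPKM) and EIF1AX had overlapping groups. Below both controls were KLF4 and SOX2, as were 15.6% of all transcripts tested. KLF4 was at 606 and 517 FPKM in NC and 507 and 422 FPKM in KDM5_KD. SOX2 was at 107 and 76.3 FPKM in NC and 66.2 and 53.8 FPKM in KDM5_KD. Markers of cumulus and granulosa cells, the somatic cells around the oocyte, were also present and differed between the groups. Their 17 rows summed to 67.8 and 26.9 FPKM in NC and to 134 and 150 FPKM in KDM5_KD. Of these 17 rows 12 were above both NC libraries in both KDM5_KD libraries and 0 below, beside 29.2% and 11.8% of the whole table. Only 10 of the rows were tested, and none passed. Among the tested rows AMH, at 2.77 and 1.12 FPKM in NC and 1.28 and 0.957 FPKM in KDM5_KD, and TNFAIP6 had overlapping groups. Of the 12 rows of oocyte markers, all of them tested, 7 were above both controls and 0 below. The shares of all transcripts tested were 35.1% and 15.6%. Of the cumulus and granulosa sums, VIM alone made up 35.6 and 8.09 FPKM in NC and 84.6 and 98.1 FPKM in KDM5_KD. FSHR was listed at 0 in both NC libraries and at no more than 0.0443 FPKM in KDM5_KD, LHCGR was listed at 0 in 3 libraries, and CYP19A1 stayed under 0.0602 FPKM. In bulk libraries like these, more cells of a type and more RNA per cell cannot be told apart.

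A single gene of the 69 passed the test across all transcripts: GLRX, the cytosolic glutaredoxin, which was almost silent in the control embryos and at several FPKM in the knockdown embryos. Below that threshold, a number of enzymes of superoxide and peroxide removal were higher in both knockdown libraries than in both controls. Of all transcripts tested, 35.1% were higher in this way. SOD1 was at about 2 times the control level, PRDX1, PRDX2, PRDX3 and PRDX6 at 1.62 to 1.92 times, and GPX1, GPX7 and GPX8 at 2.80 to 5.23 times. GPX7 and GPX8 had control means under 1 FPKM and were tested only because of their knockdown values, which favours a higher value there. GPX4, the most abundant glutathione peroxidase, SOD3 and GPX5 had overlapping groups. The peroxiredoxins PRDX4 and PRDX5, the thioredoxin TXN2, catalase and the regulators NFE2L2 and KEAP1 differed little, at 0.919 to 1.16 times the control level. The knockdown libraries were also those with the higher cumulus and granulosa marker sums. Oocyte markers, too, summed to 571 and 428 FPKM in NC and 684 and 868 FPKM in KDM5_KD. Blood markers, nearly all from HBA, summed to 31.7 and 5.28 FPKM in NC and 38.3 and 33.1 FPKM in KDM5_KD. Early embryo markers had lower sums in KDM5_KD. Between the controls, NC replicate 1 had the higher sum in each of these marker lists. It was above NC replicate 2 in 41 of the 73 rows and below it in 29. Over all 14517 rows it was above in 6805 and below in 5528. Of the 17 members higher in the knockdown at an unadjusted limma p under 0.05, GLRX, SOD1 and SELENOP were lower in NC replicate 1. The others of the 17 were higher there, as was GCLM. The part of any of these cell types in the differences was not tested.

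Groups were tested with limma on log2(FPKM + 1), on which scale all differences below are given as KDM5_KD minus NC. The 8970 transcripts with a mean of at least 1 FPKM were tested together. Of the 73 rows, 50 were tested and 23 fell below this filter, with no value above 1.66 FPKM. GPX7, GPX8, GLRX, GCLM and SOD3 had an NC mean under 1 FPKM and passed the filter through the knockdown libraries, so their being tested already favours a higher value there. Of the tested members 1 rose and 0 fell at an adjusted p under 0.05, where 0.19% of all transcripts rose and 0.0892% fell. At an unadjusted limma p under 0.05, 17 of the 50 were higher and 0 were lower, against 14.3% and 3.12% of all transcripts tested.

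Without any filter, 32 of the 73 rows (43.8%) had both KDM5_KD libraries above both NC libraries and 4 (5.48%) had both below, while the whole table had 29.2% above and 11.8% below. Among the 50 tested these counts were 25 and 4, beside 35.1% and 15.6% of all transcripts tested. Median-ratio scaling gave 22 above and 7 below, beside 25.9% and 25.4% of all transcripts, and quantile normalization 21 and 6, beside 20.7% and 28.3%. The median difference of the 50 was 0.31, and that of all transcripts 0.09. Quantile normalization moved the latter by -0.14, and the distance between the medians was 0.21 as deposited and 0.17 after it. The tested members had a median level of 10.2 FPKM and all transcripts tested one of 10.5 FPKM.

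**Figure D1:**
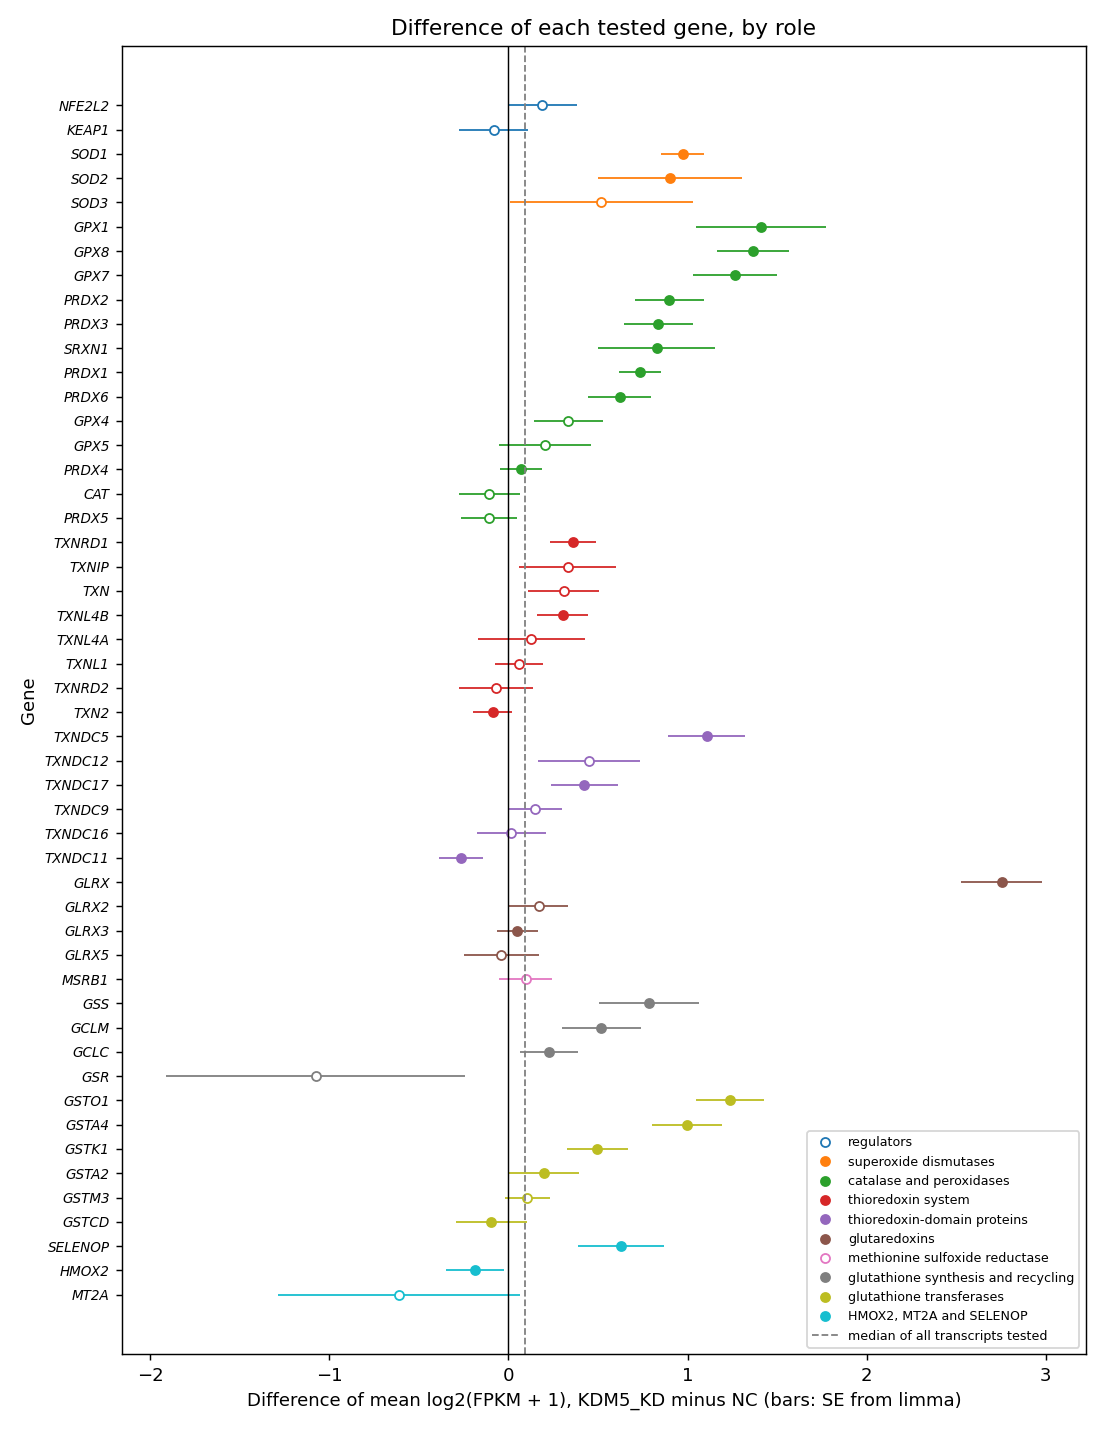
Difference of mean log2(FPKM + 1), KDM5_KD minus NC (x axis), for each of the 50 tested genes (y axis), coloured by role, with the limma standard error as a bar; filled points have groups that do not overlap (2 libraries against 2), open points have groups that do, and the dashed line is the median of all 8970 transcripts at 0.09. GLRX stands at 2.75, the superoxide dismutases and most peroxidases lie to the right of the line, and GSR and MT2A lie far to the left with wide bars.

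Among the regulators, NFE2L2 was at 5.36 and 6.42 FPKM in control embryos, compared with 6.39 and 7.29 FPKM in knockdown embryos. KEAP1 was more abundant, at 44.3 and 33.1 FPKM in the control pair and 40.5 and 32.2 FPKM in the knockdown pair. The groups overlapped for both. Their differences were 0.19 (SE 0.19) and -0.08 (SE 0.19), with limma adjusted p of 0.666 and 0.866, and that of NFE2L2 turned negative, -0.03, after quantile normalization.

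SOD1, the copper-zinc dismutase of the cytosol, had the smallest p of the set after GLRX. It was at 34.7 and 37.8 FPKM in the controls against 71.9 and 72.2 FPKM in the knockdown. Both knockdown libraries were far above both controls, and the libraries within each group were close together. The means were 36.3 ± 2.15 and 72.0 ± 0.221 FPKM (SD, n = 2), a difference of 0.97 (SE 0.12), which just missed the threshold (limma adjusted p = 0.0519). The limma adjusted p was 0.0327 with robust eBayes and 0.0452 with rows summed by gene symbol, and from 0.0545 to 0.167 under the other 8 alternatives with all libraries. It was 0.0289 and 0.0625 without NC replicate 1 or 2, and 0.244 and 0.321 without KDM5_KD replicate 1 or 2. SOD2, the manganese enzyme of mitochondria, was at 7.86 and 7.19 FPKM in control embryos, compared with 9.18 and 23.9 FPKM in knockdown embryos. Its difference of 0.90 (SE 0.40, limma adjusted p = 0.321) was 0.26 without KDM5_KD replicate 2. The extracellular SOD3 stood at 1.67 and 0.326 FPKM in the control pair and 3.21 and 0.728 FPKM in the knockdown pair, so its groups overlapped. SOD1 supplied between 74.6% and 85.3% of the summed SOD level in every library.

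The peroxiredoxins comprised 4 genes with knockdown levels well above the controls and 2 that differed little. PRDX1, the main cytosolic peroxiredoxin, was at 68.9 and 64.0 FPKM in the controls against 107 and 116 FPKM in the knockdown, a difference of 0.73 (SE 0.12, limma adjusted p = 0.0953). PRDX2, also cytosolic, was at 29.5 and 20.6 FPKM in control embryos, compared with 49.7 and 44.1 FPKM in knockdown embryos, a difference of 0.90 (SE 0.19, limma adjusted p = 0.127). For each of these genes the lower knockdown library was well above the higher control. PRDX3, the mitochondrial member, was at 6.21 and 4.78 FPKM in the control pair and 10.6 and 10.5 FPKM in the knockdown pair. PRDX6, which uses glutathione instead of thioredoxin, was at 6.99 and 6.10 FPKM in the controls against 10.1 and 11.1 FPKM in the knockdown. Their differences were 0.84 (SE 0.19) and 0.62 (SE 0.18), with limma adjusted p of 0.135 and 0.177, and the groups did not overlap.

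PRDX4, the peroxiredoxin of the endoplasmic reticulum, was at 42.7 and 42.1 FPKM in control embryos, compared with 43.6 and 45.5 FPKM in knockdown embryos. Its groups were separate by a narrow margin, with a difference of 0.07 (SE 0.12) that became -0.04 with median-ratio scaling. PRDX5, found in mitochondria and peroxisomes, was at 37.3 and 45.1 FPKM in the control pair and 34.9 and 41.3 FPKM in the knockdown pair, with overlapping groups. In NC the order of levels was PRDX1, then PRDX4 and PRDX5, whose values overlapped, then PRDX2, and last PRDX6 and PRDX3, whose values also overlapped. In KDM5_KD, PRDX2 overlapped with PRDX4, which had been above it in both control libraries. The 6 peroxiredoxins summed to 187 ± 6.26 FPKM in the controls and to 262 ± 9.17 FPKM in the knockdown (SD, n = 2), a ratio of 1.40 as deposited and of 1.30 to 1.38 under the 3 other scalings. SRXN1, sulfiredoxin, which repairs overoxidized peroxiredoxins, was at 3.34 and 1.37 FPKM in the controls against 5.31 and 4.13 FPKM in the knockdown (difference 0.83, SE 0.33, limma adjusted p = 0.277).

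**Figure D2:**
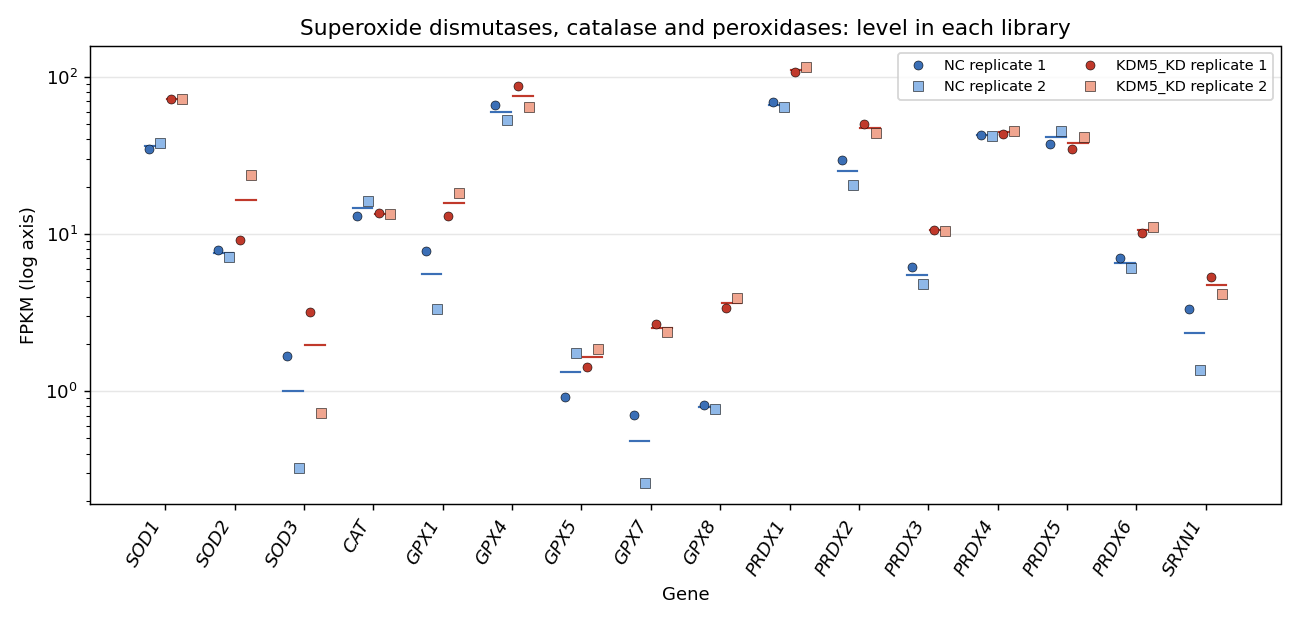
Level of each tested superoxide dismutase, catalase and peroxidase gene (x axis) in each library, in FPKM on a log axis; points are the 4 libraries and horizontal lines the group means (n = 2). SOD1, PRDX1, PRDX2, PRDX3, PRDX6, GPX1, GPX7 and GPX8 have both KDM5_KD points above both NC points, those of PRDX4 lie just above its NC points, and those of CAT and PRDX5 overlap with theirs.

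GPX4, which reduces lipid peroxides in membranes, was the most abundant glutathione peroxidase. Its main row was at 66.0 and 52.8 FPKM in control embryos, compared with 87.4 and 63.8 FPKM in knockdown embryos, with overlapping groups and a difference of 0.33 (SE 0.19, limma adjusted p = 0.426). The other 2 GPX4 rows were at no more than 1.27 FPKM, and reads may be divided among them. GPX1, the cytosolic selenoenzyme, was at 7.83 and 3.32 FPKM in the control pair and 12.9 and 18.3 FPKM in the knockdown pair. Its groups were separate, yet the control libraries differed from each other by more than 2-fold, and the difference of 1.41 (SE 0.36) had a limma adjusted p of 0.158. Leaving out NC replicate 1 raised the difference to 1.93, and leaving out NC replicate 2 gave 0.89.

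GPX7 and GPX8 encode the glutathione peroxidases of the endoplasmic reticulum, which take part in oxidative protein folding. GPX8 was at 0.822 and 0.776 FPKM in the controls against 3.39 and 3.91 FPKM in the knockdown. GPX7 was at 0.706 and 0.259 FPKM in control embryos, compared with 2.68 and 2.37 FPKM in knockdown embryos. Both were low everywhere and several-fold higher in each knockdown library, with differences of 1.37 (SE 0.20, limma adjusted p = 0.0877) and 1.26 (SE 0.24, limma adjusted p = 0.107). GPX5, known from the epididymis, was between 0.917 and 1.87 FPKM with overlapping groups, and the rows of GPX2, GPX3 and GPX6 were below the filter. Catalase, which breaks down peroxide in peroxisomes, was at 13.1 and 16.3 FPKM in the control pair and 13.6 and 13.4 FPKM in the knockdown pair. Its difference of -0.11 (SE 0.17, limma adjusted p = 0.797) was smaller than the spread between the controls. In all, 9 of the 13 tested genes of this role were above both controls in both knockdown libraries and none was below, beside 35.1% and 15.6% of all transcripts tested. GPX7 and GPX8, which passed the filter through the knockdown libraries, are among the 9. None passed the adjusted test, and 8 were higher at an unadjusted limma p under 0.05, as were 14.3% of all transcripts tested.

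Differences in the thioredoxin system lay between -0.09 and 0.36. TXN, the cytosolic thioredoxin, was at 35.4 and 26.5 FPKM in the controls against 43.4 and 33.5 FPKM in the knockdown, with overlapping groups (difference 0.31, SE 0.20, limma adjusted p = 0.476). TXN2, its mitochondrial counterpart, was at 87.3 and 87.5 FPKM in control embryos, compared with 82.1 and 82.3 FPKM in knockdown embryos. The TXN2 groups were separate because the libraries within each lay within 1 FPKM of each other, while the difference was only -0.09 (SE 0.11, limma adjusted p = 0.729). TXNRD1, the reductase that recharges TXN, was at 41.8 and 37.3 FPKM in the control pair and 48.9 and 53.0 FPKM in the knockdown pair (difference 0.36, SE 0.13, limma adjusted p = 0.245). The mitochondrial reductase TXNRD2 was far lower, between 1.07 and 1.39 FPKM, and overlapped.

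TXNIP, which binds and inhibits thioredoxin, was at 1.66 and 1.91 FPKM in the controls against 1.79 and 3.38 FPKM in the knockdown. TXNL1, a thioredoxin-like protein associated with the proteasome, had the highest mean over the 4 libraries of the whole set, at 97.1 and 116 FPKM in control embryos, compared with 115 and 106 FPKM in knockdown embryos. In NC replicate 1 GLRX5 was above TXNL1, and in KDM5_KD replicate 2 PRDX1 was. Neither TXNIP nor TXNL1 had separate groups. The 8 tested genes of this role had a median difference of 0.21, with 2 above both controls (TXNRD1 and TXNL4B), 1 below (TXN2) and none past the adjusted test. These shares, 25.0% and 12.5%, were under the 35.1% and 15.6% of all transcripts tested.

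Among the thioredoxin-domain proteins, TXNDC5 and TXNDC11 lay at opposite ends. TXNDC5, a protein disulfide isomerase of the endoplasmic reticulum, was at 5.21 and 3.61 FPKM in the control pair and 10.5 and 10.5 FPKM in the knockdown pair, a difference of 1.11 (SE 0.21, limma adjusted p = 0.109). TXNDC11 was at 34.7 and 34.8 FPKM in the controls against 28.5 and 29.1 FPKM in the knockdown, a difference of -0.26 (SE 0.12, limma adjusted p = 0.340). Replicates of both genes lay close together in the knockdown. TXNDC9, TXNDC12 and TXNDC16 overlapped, with differences from 0.02 to 0.45, and TXNDC17 was above both controls by 0.42 (SE 0.19). TXNDC8 was listed at 0 in every library.

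The glutaredoxins, small enzymes that remove glutathione from protein thiols or help to pass on iron-sulfur clusters, held the change that passed. GLRX (NM_001037604) was at 0.120 and 0.356 FPKM in control embryos, compared with 8.14 and 6.56 FPKM in knockdown embryos. Both knockdown libraries were at least 6 FPKM above both controls. Its mean went from 0.238 ± 0.166 to 7.35 ± 1.12 FPKM (SD, n = 2), a ratio of 30.9 that rests on control values under 0.4 FPKM. The difference of 2.75 (SE 0.22) had a limma adjusted p of 0.0168, and over the 9 other alternatives that used all 4 libraries and kept the gene it ranged from 0.00624 to 0.217. The adjusted p was 0.217 without a filter on low values, and 0.0795 and 0.0686 without KDM5_KD replicate 1 or 2. The gene's mean of 3.79 FPKM was under the stricter filter.

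GLRX2, a mitochondrial and nuclear glutaredoxin, was at 18.7 and 21.5 FPKM in the control pair and 24.9 and 20.5 FPKM in the knockdown pair. GLRX3, which serves iron trafficking in the cytosol, was at 66.5 and 63.1 FPKM in the controls against 67.3 and 66.8 FPKM in the knockdown. GLRX5, needed for iron-sulfur clusters in mitochondria, was at 113 and 75.4 FPKM in control embryos, compared with 97.8 and 82.4 FPKM in knockdown embryos. These 3 genes had differences between -0.04 and 0.17 with limma adjusted p of 0.646 to 0.943. GLRX made up 0.0607% and 0.222% of the summed glutaredoxin level in NC and 4.11% and 3.72% in KDM5_KD. Even after its rise it was thus the lowest of the 4.

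**Figure D3:**
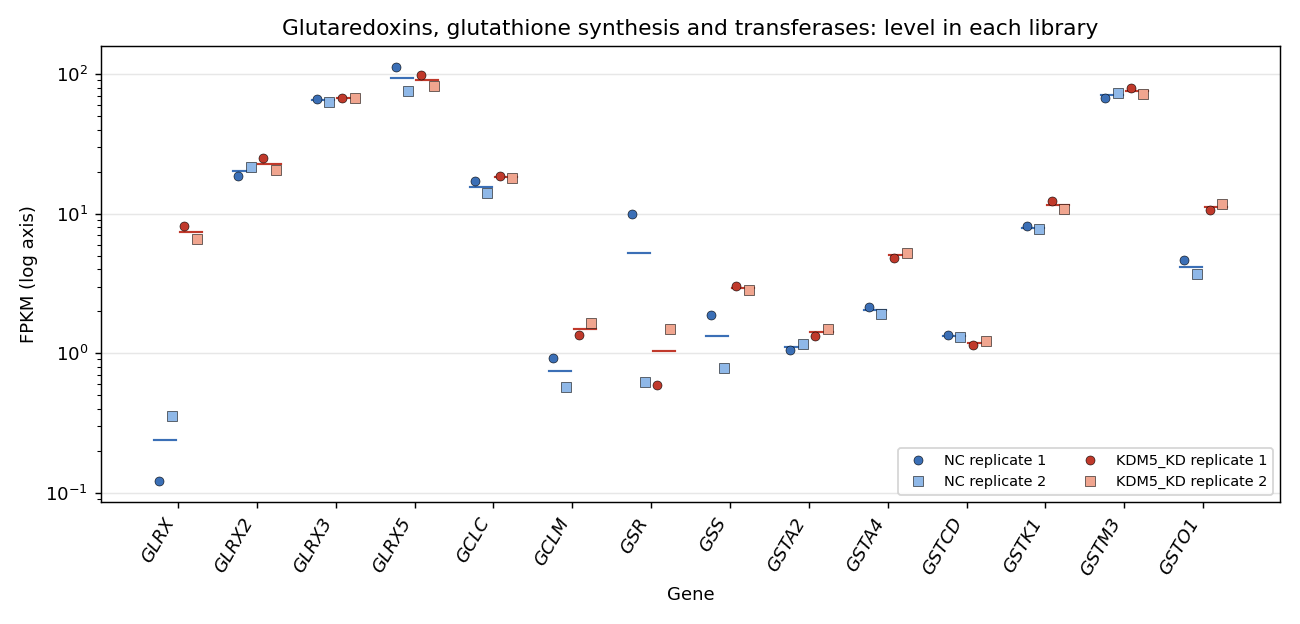
Level of each tested glutaredoxin, glutathione synthesis or recycling gene and glutathione transferase gene (x axis) in each library, in FPKM on a log axis; points are the 4 libraries and horizontal lines the group means (n = 2). GLRX lies below 0.4 FPKM in NC and above 6 FPKM in KDM5_KD, GSTO1 and GSTA4 are separate between groups, and a single NC library holds the high GSR value.

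Glutathione is made in 2 steps, by glutamate-cysteine ligase (catalytic subunit GCLC, modifier subunit GCLM) and glutathione synthetase (GSS), and its oxidized form is recycled by glutathione reductase (GSR). GCLC was at 17.2 and 14.0 FPKM in the control pair and 18.5 and 18.1 FPKM in the knockdown pair. GCLM was much lower, at 0.930 and 0.567 FPKM in the controls against 1.35 and 1.64 FPKM in the knockdown. GSS was at 1.88 and 0.785 FPKM in control embryos, compared with 3.00 and 2.82 FPKM in knockdown embryos. All 3 synthesis genes were higher in both knockdown libraries than in both controls, by 0.23 (SE 0.16), 0.52 (SE 0.22) and 0.78 (SE 0.28), and none passed (limma adjusted p of 0.524, 0.303 and 0.242). Of all transcripts tested, 35.1% were above both controls in this way. GCLM, with an NC mean under 1 FPKM, passed the filter through the knockdown libraries.

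GSR differed within the control group. It was at 9.89 FPKM in NC replicate 1 and at 0.616 FPKM in NC replicate 2, and at 0.592 and 1.49 FPKM in KDM5_KD. NC replicate 1 alone stood apart from the other 3 libraries. The difference of -1.08 (SE 0.84, limma adjusted p = 0.559) became 0.30 without that library, so no direction is given for GSR.

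GSTM3, a mu-class enzyme, was by far the most abundant glutathione transferase, at 66.8 and 73.7 FPKM in the control pair and 79.6 and 71.7 FPKM in the knockdown pair, with overlapping groups. GSTO1, an omega-class enzyme with glutaredoxin-like activity, was at 4.61 and 3.71 FPKM in the controls against 10.6 and 11.7 FPKM in the knockdown, a difference of 1.24 (SE 0.19, limma adjusted p = 0.0946). GSTA4, an alpha-class enzyme that clears the lipid peroxidation product hydroxynonenal, was at 2.15 and 1.89 FPKM in control embryos, compared with 4.81 and 5.25 FPKM in knockdown embryos, a difference of 0.996 (SE 0.196, limma adjusted p = 0.110). GSTO1 and GSTA4 were both more than 2-fold higher by their means, with tight replicates in each group. GSTK1, of mitochondria and peroxisomes, was at 8.10 and 7.72 FPKM in the control pair and 12.3 and 10.8 FPKM in the knockdown pair (difference 0.50, SE 0.17, limma adjusted p = 0.226). GSTA2 was between 1.05 and 1.49 FPKM, and GSTCD between 1.14 and 1.34 FPKM. The alpha-class genes are close paralogs, so reads may be divided between their rows.

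The other 8 transferases were below the filter: GSTA1, GSTA3, GSTA5, GSTO2, GSTT1, GSTT4 and GSTZ1 had means under 0.6 FPKM, and GSTT2 was listed at 0 throughout. The share of GSTM3 in the summed transferase level was 79.1% and 82.0% in NC and 71.5% and 69.8% in KDM5_KD, while that of GSTO1 was 5.46% and 4.13% in NC and 9.49% and 11.4% in KDM5_KD. GSTM3 itself had a difference of 0.11 (SE 0.12, limma adjusted p = 0.718), which became -0.01 with median-ratio scaling.

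Methionine sulfoxide reductases repair oxidized methionine. MSRB1, the selenoenzyme of this family, was its one tested gene, at 15.0 and 15.9 FPKM in the controls against 17.3 and 15.8 FPKM in the knockdown, with overlapping groups. MSRA was picked after its values were seen. It was listed at 0 and at 0.0326 FPKM in NC and was at 0.651 and 1.04 FPKM in KDM5_KD, all too low for the test. MSRB2 was at 0.479 and 0.119 FPKM in control embryos, compared with 0.667 and 0.608 FPKM in knockdown embryos, and both rows of MSR1 were at no more than 0.156 FPKM in any library.

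Of the stress-inducible genes, HMOX1 and NQO1, known as targets of NRF2, were low. NRF2 switches on many other genes, so the levels of HMOX1 and NQO1 do not stand for its targets as a whole. HMOX1, the inducible haem oxygenase, was at 0.653 and 0.139 FPKM in the control pair and 1.25 and 0.534 FPKM in the knockdown pair. NQO1, a quinone reductase, was at 1.08 and 0.597 FPKM in the controls against 1.03 and 0.982 FPKM in the knockdown. Neither passed the filter and both overlapped between groups. The constitutive haem oxygenase HMOX2 was at 24.7 and 19.7 FPKM in control embryos, compared with 19.1 and 19.3 FPKM in knockdown embryos, a difference of -0.19 (SE 0.16, limma adjusted p = 0.599).

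MT2A, a metal-binding metallothionein, was at 4.98 FPKM in NC replicate 1 and at 27.4 FPKM in NC replicate 2, and at 6.58 and 8.60 FPKM in KDM5_KD. The controls differed more from each other than the groups did, and the difference of -0.61 (SE 0.67) turned to 0.51 without NC replicate 2. MT1A was listed at 0 in all libraries. SELENOP, a secreted selenium carrier, was at 4.16 and 4.26 FPKM in the control pair and 5.67 and 8.74 FPKM in the knockdown pair, a difference of 0.63 (SE 0.24, limma adjusted p = 0.264).

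In sum the 73 rows came to 1110 and 1050 FPKM in NC and to 1302 and 1270 FPKM in KDM5_KD, which is 0.386% and 0.376% of the library sum without microRNA rows in NC and 0.449% and 0.445% in KDM5_KD. The ratio of the group means was 1.19 as deposited and 1.10 to 1.17 under the 3 other scalings, with the groups separate in each. PRDX1, SOD1 and PRDX2 together accounted for 102 of the net 206 FPKM. The superoxide dismutases summed to 44.8 ± 0.723 FPKM in the controls and to 90.5 ± 8.88 FPKM in the knockdown (SD, n = 2), a ratio of 2.02, or 1.87 to 1.99 under the other scalings. The glutathione peroxidases had a ratio of 1.47, or 1.36 to 1.45, and the transferases without GSTCD one of 1.23, or 1.14 to 1.21. By contrast TXN and TXN2 together were at 118 ± 6.10 FPKM in the controls and at 121 ± 6.86 FPKM in the knockdown (SD, n = 2), a ratio of 1.02 that was 0.944 with median-ratio scaling, and the groups overlapped.

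**Figure D4:**
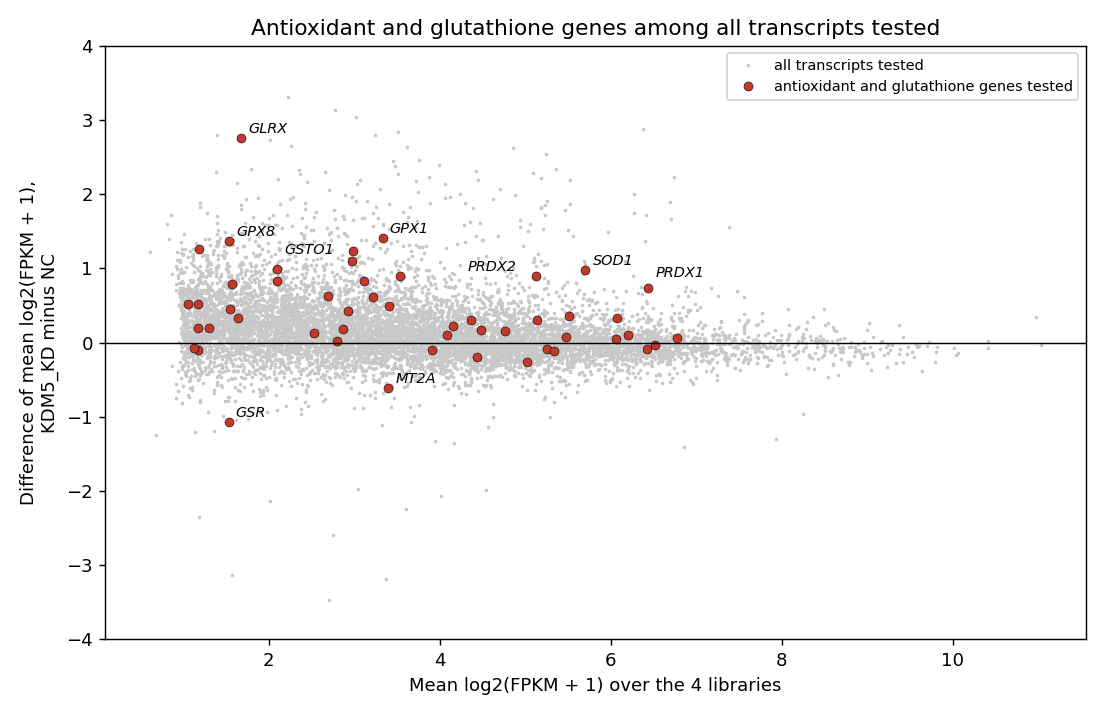
Difference of mean log2(FPKM + 1), KDM5_KD minus NC (y axis), against the mean log2(FPKM + 1) over the 4 libraries (x axis), for all 8970 transcripts tested (grey) and the 50 antioxidant and glutathione genes among them (red); 8 transcripts lie outside the y axis. GLRX, GPX8, GPX1 and GSTO1 sit at the upper side of the grey cloud for their level, as do SOD1, PRDX1 and PRDX2 at higher levels, and most other members lie inside it.

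Related genes of the same pathways were counted in 4 lists, none of whose transcripts passed the adjusted test in either direction. At an unadjusted limma p under 0.05, the lists had 1 higher and 2 lower (cysteine and glutathione supply), 4 and 2 (NADPH supply), 4 and 0 (NRF2 partners and targets) and 4 and 1 (selenoproteins and their synthesis), where 14.3% of all transcripts tested were higher and 3.12% lower. The counts of separate groups below stand beside 35.1% of all transcripts tested above both controls and 15.6% below. AIFM2, ME1, CTH and the lower SELENOM row had an NC mean under 1 FPKM and passed the filter through the knockdown libraries. Their being tested already favours a higher value there. In the list of NRF2 partners and other targets, 8 of 15 tested transcripts (53.3%) were above both controls and none was below. Its largest difference was that of AIFM2, a membrane quinone reductase that limits lipid peroxidation, at 1.31 and 0.570 FPKM in the controls against 2.65 and 2.44 FPKM in the knockdown (0.90, limma adjusted p = 0.177). The lowest in that list was MAFK, a DNA-binding partner of NRF2, at 66.2 and 32.7 FPKM in control embryos, compared with 37.2 and 35.9 FPKM in knockdown embryos (-0.34, limma adjusted p = 0.616).

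In the list for NADPH supply, 5 of 11 transcripts (45.5%) were above both controls and 3 (27.3%) were below. ME1, malic enzyme, led with 0.962 and 0.477 FPKM in the controls against 2.07 and 2.09 FPKM in the knockdown (0.85, limma adjusted p = 0.163). It passed the filter through the knockdown libraries. At the other end was IDH2, the mitochondrial isocitrate dehydrogenase, at 20.4 and 23.6 FPKM in the control pair and 15.8 and 15.9 FPKM in the knockdown pair (-0.45, limma adjusted p = 0.216). For cysteine and glutathione supply and turnover, 2 of 10 tested (20.0%) were above and 3 (30.0%) below, a smaller share above and a larger share below than over all transcripts. GGCT, which degrades gamma-glutamyl amino acids, was at 9.22 and 5.40 FPKM in the controls against 13.9 and 17.5 FPKM in the knockdown (1.04, limma adjusted p = 0.157), and GGT5, a gamma-glutamyltransferase family enzyme of the cell surface, was at 2.98 and 3.09 FPKM in control embryos, compared with 1.81 and 1.51 FPKM in knockdown embryos (-0.60, limma adjusted p = 0.216).

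Of the selenoproteins and the factors that make them, 4 of 15 tested transcripts (26.7%) were above and 3 (20.0%) below, again fewer above and more below than over all transcripts. SELENOM, a selenoprotein of the endoplasmic reticulum, had the largest difference in a row at 4.98 and 0.688 FPKM in the control pair and 10.4 and 9.21 FPKM in the knockdown pair (1.76, limma adjusted p = 0.205). SEPHS1, related to the selenophosphate synthetase, was at 125 and 108 FPKM in the controls against 82.4 and 77.2 FPKM in the knockdown (-0.54, limma adjusted p = 0.139). The list's transcripts thus lay on both sides, with a median difference of 0.09, equal at this precision to that of all transcripts.

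The replicates of a group also differed among these genes. KDM5_KD replicate 1 was above replicate 2 in 32 of the 73 rows and below it in 37, beside the counts of 41 and 29 given for the controls. Over all 14517 rows KDM5_KD replicate 1 was above in 5440 and below in 6998. Without NC replicate 1, 8 members were higher and 1 was lower at a limma adjusted p under 0.05, while 340 of all transcripts passed against 25 with all libraries. Without either knockdown library none passed, and 8 or 6 of all transcripts did. With KDM5_KD replicate 1 as the only knockdown library, 32 tested members were above both controls and 7 below, beside 45.0% and 25.9% of all transcripts tested. In that comparison, without the library with the conflicting label, the difference of SOD2 was 0.26 and that of TXNIP 0.0055, against 0.90 and 0.33 with all libraries.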

How the data were processed

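PolyA RNA was sequenced in 4 libraries (NC and KDM5_KD, n = 2 each), for which the authors deposited FPKM values per RefSeq transcript. Trimmomatic, HISAT2, featureCounts and Cufflinks are named in the submitters' processing notes, without versions or roles. The genome build is not given in the sources used here, so no coordinates are printed. Some deposited values are as small as 4.83e-141, so reads can have been apportioned between transcripts, and a listed 0 need not mean absence. Strand-specific counting is not stated, and depth is unknown.

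Symbols came from a RefSeq table of ARS-UCD2.0, which matched 14295 of 14517 accessions. The members and lists were chosen with earlier results of these data known. Differences were tested with limma 3.58.1 in R 4.3.3 (lmFit, eBayes with trend) on log2(FPKM + 1) for the 8970 transcripts averaging 1 FPKM or more, with Benjamini-Hochberg adjustment. This scale understates changes of low genes. In 5 simulated tables of these transcripts with 200 changed in each, 68% of changes of 1 on the log2 scale and 99% of changes of 2 were called, and 6.29% of calls were false. The simulated noise was independent and drawn from variances already smoothed by the same eBayes fit, so these shares need not hold for the real libraries. There KDM5C, an siRNA target with a difference of -1.00, did not pass.

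Named members were NFE2L2, KEAP1 and a list of core enzymes, up to 10 of the largest non-overlapping differences in each direction (4 were lower), the most abundant gene of each role, and any that passed. Related genes were named at the 2 ends of each list. Alternatives comprised another pseudocount (0.1), other filters (none, or 5 FPKM), 3 scalings, 2 variance models, the replicate block, rows summed by symbol, a narrower membership without TXNDC, TXNL4, MSR1 and GSTCD genes, and leaving out each library. Oocyte markers summed to 428 to 571 FPKM in NC and 684 to 868 FPKM in KDM5_KD, early embryo markers to 977 to 1030 and 805 to 929 FPKM, sperm markers to 1.31 FPKM at most, and blood markers to 5.28 to 38.3 FPKM, nearly all from HBA. Plots were drawn with matplotlib 3.10.9.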

Additional observations from a re-analysis of the deposited data

How the results depend on the processing

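GLRX was the member that passed with all libraries. The number of members past the threshold was 0 without a filter, with the filter at 5 FPKM and with the replicate block, and 2 with robust eBayes or rows summed by symbol, where SOD1 joined GLRX. Leaving out a library gave between 0 and 9. The replicate numbers of the titles correlated at 0.229 in their deviations from the group means, over 2 pairs that nothing in the labels ties together; with the replicate block the limma adjusted p of GLRX was 0.0534. Members below both controls numbered 7 with median-ratio scaling and 2 with the narrower membership, against 4 as reported. Those above both controls numbered 25 as reported. With all libraries they ran from 17 (filter at 5 FPKM, 34 members tested) to 32 (no filter, 73 members), counts that do not share a base. With a library left out, 30 to 35 members were above the controls and 6 to 10 below. A group of a single library separates more easily, and the shares of all transcripts tested rose too, in both directions. The counts with a library left out therefore cannot show whether the reported counts are stable. The median difference of members was 0.20 with median-ratio scaling and 0.13 after quantile normalization, and 0.23 to 0.35 with a library left out. Reversals of sign were followed only for the 37 named members that were tested, not for the other members. Of these named members 4 reversed with median-ratio scaling: GSTM3 (-0.0055), MSRB1 (-0.0098), PRDX4 (-0.040) and TXNL1 (-0.050). With quantile normalization the named members MSRB1 (-0.018) and NFE2L2 (-0.031) did. With a library left out CAT ranged from -0.26 to 0.043, GLRX5 from -0.33 to 0.25, GSR from -2.45 to 0.30, KEAP1 from -0.29 to 0.12, MT2A from -1.74 to 0.51, PRDX5 from -0.24 to 0.026 and TXNL1 from -0.067 to 0.19. The other causes were not tested. Depth limits the lowest transcripts, and no detection limit can be stated.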
